A study of Homo sapiens with 4 samples.

Results

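RNA of the HAC 1-20 clone was compared with the DNA carried over in the same kind of RNA preparation, in 2 of the 4 libraries of the series (the other two came from a second clone, HAC 4-65). HAC 1-20 is a human artificial chromosome carried by HT1080, which is an established fibrosarcoma line of human origin, and it was formed from synthetic alphoid repeat units that were cotransfected on BAC vectors. CenU is the unit with CENP-B boxes and NCU is the nearly identical unit in which these boxes are mutated. Each unit ends with a position code (PC), a short sequence that differs from unit to unit. The RT plus library came from total RNA of HAC 1-20 cells after reverse transcription, and the RT minus library came from the same handling with no reverse transcriptase. Both therefore share the cell line, the HAC and the geneticin selection of the study, and HAC 1-20 is 1 clone with 1 library a side. The 64 CenU codes in the input DNA of this HAC are described one by one, of 128 CenU codes among the count references, and 96 NCU codes set the scale between the libraries. Codes are called by their references in the counts, T with the number for CenU (T065 to T128 for the input) and L with the number for NCU (L001 to L096).

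Centromeres are the chromosome sites where kinetochores form. In human cells their place is marked by nucleosomes that hold CENP-A, a variant of histone H3, on arrays of alphoid DNA. CENP-B binds a short motif in these arrays, the CENP-B box, and CENP-B boxes are needed for a new centromere to form on alphoid DNA brought into cells. Alphoid arrays are also transcribed at a low level. In natural arrays the repeats are often too alike to tell which copy gave a transcript. A PC of this HAC makes that possible where it occurs on a single unit. The study mapped 2 CENP-A dense regions on this HAC, D1 and D2, and a CENP-A sparse region, S1. In code numbers, D1 holds T069 to T084 (16 codes), D2 holds T111 to T123 (13 codes) and S1 holds T104 to T109 (6 codes). These limits were read from the study's map.

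The PC was read through a short PCR product with the same primers on every unit. The product of T104 as it stands on the assembled contig of the HAC is 132 bases long, and the 23 bases of the code are in capitals.
T104 product: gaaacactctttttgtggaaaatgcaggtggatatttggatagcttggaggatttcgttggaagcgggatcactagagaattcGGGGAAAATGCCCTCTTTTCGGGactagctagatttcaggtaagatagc

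The next 10 codes are shown because they are neighbours on that contig, in this order, and because they are the codes that passed 1.5-fold between the libraries. Capitals mark the 6 of 23 bases in which CenU codes differ from each other.
T065: ggggaaaaTAcccAAtttAAggg
T066: ggggaaaaTAcccATtttATggg
T067: ggggaaaaTAcccAGtttAGggg
T104: ggggaaaaTGcccTCtttTCggg
T105: ggggaaaaTGcccGAtttGAggg
T106: ggggaaaaTGcccGTtttGTggg
T107: ggggaaaaTGcccGGtttGGggg
T108: ggggaaaaTGcccGCtttGCggg
T109: ggggaaaaTGcccCAtttCAggg
T110: ggggaaaaTGcccCTtttCTggg

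Each of the 224 CenU and NCU codes of the list has another code only 1 base away. Of 96 numbers that are used for both a CenU and an NCU code, 94 name a pair that is 1 base apart. T002 to T064 were not in the input DNA and give the level of reads on codes that this HAC should not hold. They took 1138 RT minus and 2987 RT plus reads, which is 0.737% and 0.660% of the reads on L002 to L064. The median code of T002 to T064 had 17 RT minus and 34 RT plus reads, against 506 and 1678.5 for the median of the input codes. A code is called well-read here if its RT minus reads reached 20% of this 506, which holds for 59 of the 64 input codes.

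The RT minus library held 248904 matched reads and the RT plus library 749846. The NCU codes held 208546 and 612193 of these, or 83.8% and 81.6%, so 1 read of RT minus was set equal to 2.94 reads of RT plus. A ratio is the RT plus reads of a code over its RT minus reads on this scale, and excess reads are the RT plus reads above the number at which the ratio is 1. A ratio of 1 says that a code took the same part of the PCR pool, relative to NCU, with and without reverse transcription. Competitive PCR gives proportions and no amounts, and NCU RNA, if there was any, is part of the scale. Intervals are 95% intervals from Poisson counting. They cover counting error only, since no molecular identifiers were used and several reads can come from the same molecule. With 1 library a side no difference has a replicate check, and no test was made.

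Summed over the input CenU codes, 37394 RT minus reads stood against 130283 RT plus reads, a ratio of 1.19 and 0.25 on the log2 scale (95% interval 0.23 to 0.27). The median code was at 1.05. A few codes thus stood far above the others, and most codes were close to the DNA control. Of 159 input CenU and NCU codes with at least 10 reads, 10 were at least 1.5-fold higher in RT plus with an interval above 1 (6.29%), and all 10 were input CenU codes. None was 1.5-fold lower (0%). The 10 codes were T065, T066 and T067 and T104 to T110. They fall into separate number ranges in the input DNA, and on the contig of the HAC they form a single uninterrupted run. Summed over this run, 6848 RT minus reads stood against 36709 RT plus reads, a ratio of 1.83 (1.78 to 1.87).

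**Figure D1:**
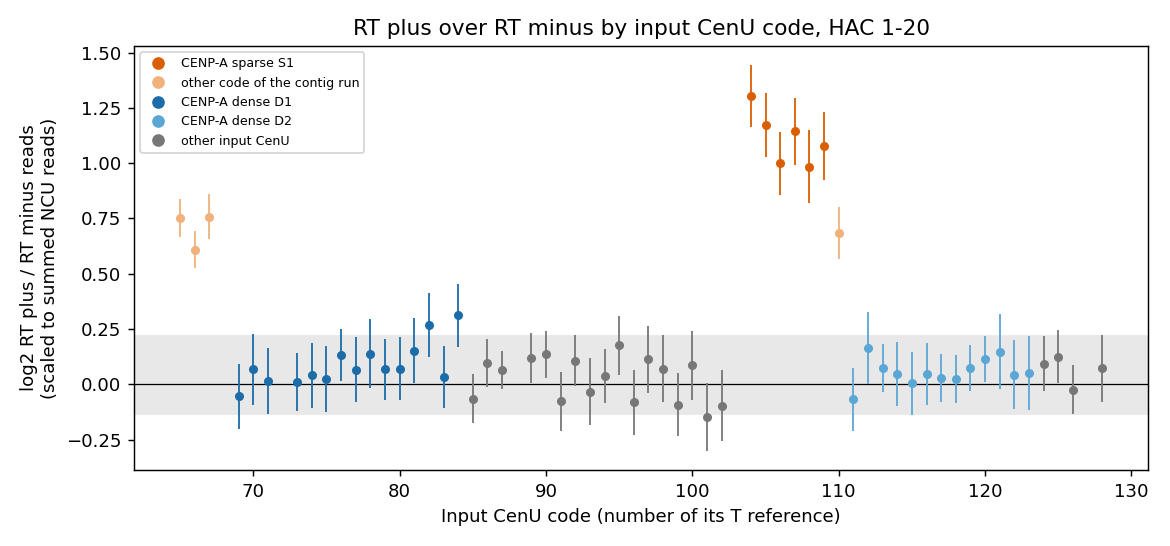
The log2 ratio of RT plus to RT minus reads, scaled to summed NCU reads, is plotted for each well-read input CenU code. Bars are 95% counting intervals and the grey band spans the well-read NCU codes (-0.13 to 0.22). The 10 codes of the contig run sit between 0.61 and 1.30, and the other 49 codes between -0.15 and 0.31.

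The CENP-A sparse region S1 was the highest. T104, its first unit, went from 462 reads without reverse transcription to 3349 with it, a ratio of 2.47 (2.24 to 2.72), which was the highest of the input codes. T105 went from 441 to 2919 reads, a ratio of 2.25. T106 went from 454 to 2666 reads, with an interval of 1.81 to 2.21. Over these 3 units the RT minus reads were almost the same from unit to unit, while the RT plus reads fell. T107 held 401 and 2606 reads and was at 2.21. T108 held 340 and 1978 reads and was at 1.98. T109 held 386 and 2394 reads and was at 2.11 (1.90 to 2.35). The 6 codes of S1 had RT minus reads between 67.2% and 91.3% of the input median, so their DNA was below that of the median code. Their intervals overlapped except at the top, where that of T104 lay above those of T106 and T108.

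Summed over S1 the libraries held 2484 and 15912 reads, a ratio of 2.18 (2.09 to 2.28). Of the RT plus reads on S1, 54.2% were above the number given by the DNA control. Its share of the input CenU reads was 6.64% before and 12.2% after reverse transcription.

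The other 4 codes of the run were raised less in ratio, and they had more DNA. T065 went from 1327 to 6562 reads, a ratio of 1.68 (1.59 to 1.79). T066 went from 1371 to 6140 reads, a ratio of 1.53 (1.44 to 1.62), the lowest of the run. T067 went from 941 to 4673 reads, a ratio of 1.69. The RT minus reads of these 3 codes were 186% to 271% of the input median, whereas S1 codes were all below the median. T110, which follows S1 on the contig, held 725 and 3422 reads, a ratio of 1.61 (1.48 to 1.74), with RT minus reads at 143% of the input median. The ratios of these 4 codes were below those of all 6 S1 codes. The intervals of T066 and T110 lay below every S1 interval, that of T065 overlapped the interval of T108, and that of T067 overlapped those of T106 and T108. A code that occurs on several units has 1 count, in which copies inside and outside the run cannot be told apart, and the study's map places T065 to T067 and T110 in more than one cluster.

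**Figure D2:**
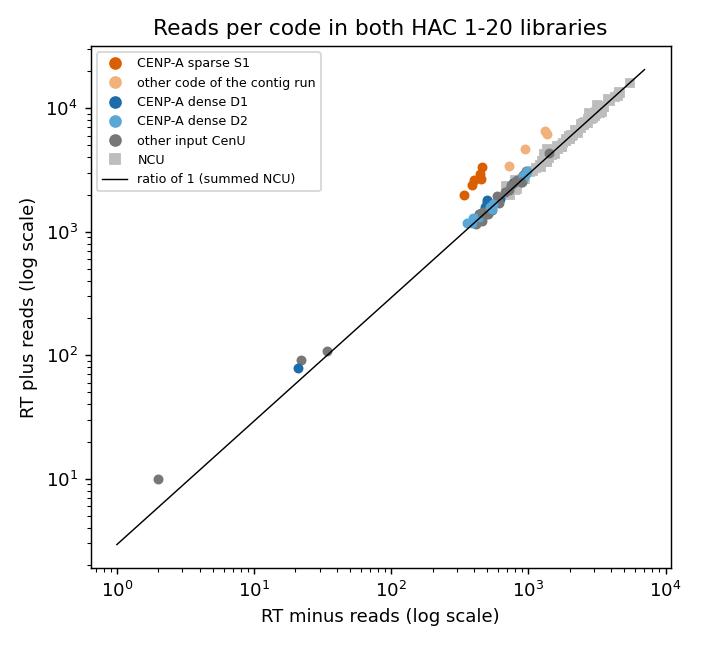
RT plus reads are plotted against RT minus reads for each input CenU code with at least 10 reads and for each well-read NCU code, both axes on a log scale. The line marks a ratio of 1. Codes of the contig run lie above the line, S1 (340 to 462 RT minus reads) farther than T065 to T067 and T110 (725 to 1371), and the dense regions lie along it.

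The CENP-A dense regions were near the DNA control. D1 had 7808 RT minus reads and 24462 RT plus reads, a ratio of 1.07 (1.04 to 1.10). Its highest well-read code was T084 with 496 and 1809 reads, a ratio of 1.24 (1.12 to 1.37). Its lowest well-read code was T069 with 507 and 1434 reads, a ratio of 0.963 (0.870 to 1.07). T084 was also the highest of the well-read input codes outside the run, and its ratio stood below that of the lowest code of the run. D2 held 8422 and 25722 reads, a ratio of 1.04 (1.01 to 1.07). Its codes ran from T111 with 543 and 1521 reads, at 0.954 (0.865 to 1.05), to T112 with 396 and 1304 reads, at 1.12 with a lower bound of 1.00. T110 and T111 are neighbours in number, and the first was raised while the second was not above the control. On the contigs read here T113 and T117 to T120 lie in a CenU run out of number order, and the other 8 codes of D2 were at 1.03 (0.996 to 1.07). None of the 29 dense codes reached 1.5-fold. Of these 29 codes, 6 had an interval above 1 and 0 had one below. Among the 96 NCU codes that set the scale, 11 had an interval above 1 and 14 had one below. An interval that leaves out 1 was thus also found among the scaling codes, on both sides. The summed NCU ratio is 1 by the scale, so NCU codes cannot all fall on the same side.

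The ratio of S1 over that of D1 and D2 together was 2.07 (1.98 to 2.17). The codes of S1 ranged from 1.98 to 2.47 and the well-read codes of the dense regions from 0.954 to 1.24, with no overlap. The comparison of sparse with dense is also a comparison of one place on the contig with others, since S1 lies inside the run, and those cannot be told apart. The run held 4 codes outside S1, which are in neither dense region, and their summed ratio was 1.62 (1.57 to 1.68). The 25 input codes in no region and not in the run, 21 of them well-read, held 14316 and 43390 reads and were at 1.03 (1.01 to 1.05). D1 (1.07), D2 (1.04) and these codes thus lay within a few percent of each other.

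The lowest well-read input codes were T101, T102 and T099, all of which lie just before S1 in the input DNA. T101 held 461 and 1223 reads, a ratio of 0.903 (0.811 to 1.01). T102 held 417 and 1146 reads, at 0.935 (0.836 to 1.05), and T099 held 543 and 1496, at 0.938 (0.850 to 1.03). Their intervals all included 1, so a loss relative to NCU was not detectable at this depth. T100, which lies between T099 and T101 in number, was at 1.06, and T097 and T098 were at 1.08 and 1.05. In number order the ratio went from 0.935 at T102 to 2.47 at T104, with T103 between them nearly unread. On the contig the unit before T104 is T067.

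In the contig sequences read here (4 contigs of a shortened listing, with 22 CenU and 163 NCU units), the raised codes lay on a contig of 103374 bases. The codes of the run stand 1946 bases apart, on the same strand, from T065 at 41436 to 41458 to T110 at 58950 to 58972 (positions counted on that contig, since these synthetic units have no place in a human genome build). Before T065 there are 9818 bases with no code after T127, and the first 399 bases listed for the vector pBAC KMN matched there, 3.06 kb before the T065 code and on the strand of the run. After T110 come L025, L026, L027 and L028 on the same strand. In 19 of the 22 CenU units the 1946 bases up to the end of the code held 5 matches to the CENP-B box core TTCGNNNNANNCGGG, searched on both strands. In 157 of 158 NCU units with that length they held 0. Each of the 10 run units held 5, as most CenU units did.

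Along the contig the excess reads were highest in the first units after the vector and lower, without a steady order, in the later units of the run. T065 had 2667 excess reads (2403 to 2930), T066 had 2115 and T067 had 1911 (1689 to 2133). T104 had 1993 and T105 had 1624. The junction of T067 with T104, which joins units far apart in the input DNA, showed no step in excess beyond the counting intervals, while the ratio rose from 1.69 to 2.47. The excess was 1333 at T106, 1429 at T107 and 980 at T108 (843 to 1117). It was 1261 at T109 and 1294 at T110 (1101 to 1487). The last 5 units thus lay between 980 and 1429, and T065 had the highest value of the run. T065 to T067 had the most RT minus reads of the run, and copies of these codes in other clusters are part of their values. In excess reads the order was led by T065 and in ratio by T104.

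**Figure D3:**
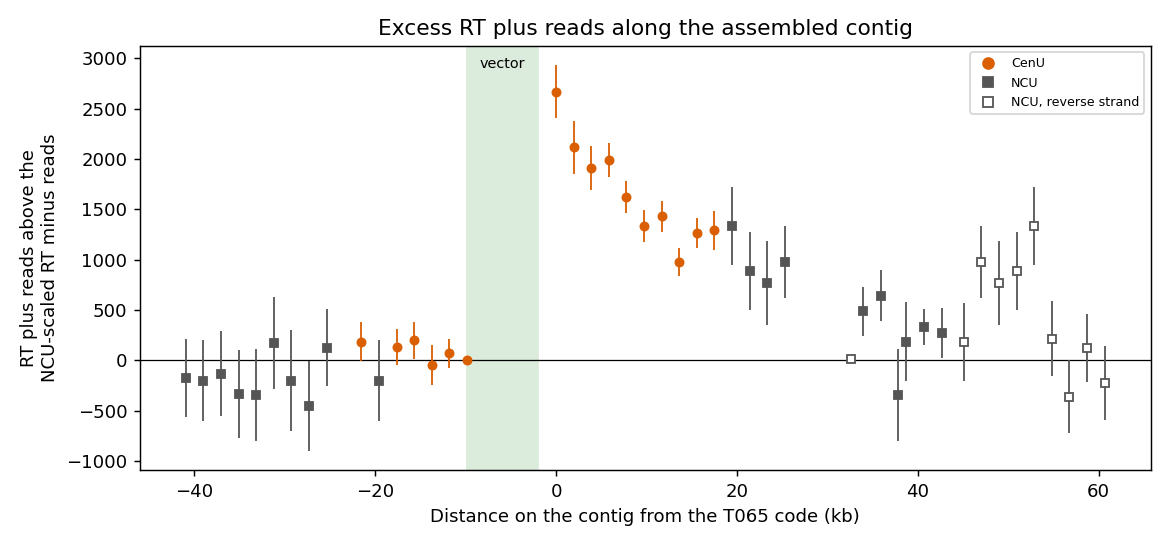
RT plus reads above the NCU-scaled RT minus reads are plotted for each unit of the contig against the distance of its code from the T065 code in kb, with 95% counting intervals. A code that occurs on several units has a single value, drawn at each of them, as for L025 to L028 on both strands, and the shaded span holds no code. Excess starts at 2667 reads right after the span and is 980 to 1294 over T108 to T110, against -43 to 198 for the 4 well-read CenU codes before it.

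On the other side of the vector the same contig holds T124, T125, T126 and T128. T124 held 671 and 2103 reads, T125 held 742 and 2376, T126 held 882 and 2546, and T128 held 460 and 1421. Their summed ratio was 1.04 (1.00 to 1.09), and none reached 1.5-fold. T092, a lone CenU unit among NCU units farther from the vector, held 811 and 2566 reads and was at 1.08 (0.995 to 1.17). CenU runs on another contig were as near to the control. T087, again a lone unit on the contigs read here, held 1416 and 4349 reads and was at 1.05 with a lower bound of 0.985. Its RT minus reads were 280% of the input median. It had about as many RT minus reads as T066 (1371) and was not raised. The run from T117 to T113 began with 916 and 2742 reads, at 1.02 (0.946 to 1.10), and ended with 910 and 2815, at 1.05 (0.977 to 1.14). The contig listing is shortened, and each count covers all copies of its code. Copies on units not read here cannot be told apart from those named.

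The NCU units after T110 were looked at after their values had been seen. L025 had 3164 RT minus reads and 10623 RT plus reads, an excess of 1335 reads and a ratio of 1.14 (1.10 to 1.19). L026 held 3260 and 10456 reads (1.09), L027 held 3814 and 11967 (1.07), and L028 held 2776 and 9122 (1.12). By ratio they did not lead, since L063 and L066 (1.16 each) stood above all of them. In excess reads L025 to L028 were the 4 highest of the 96 NCU codes, from 771 to 1335, beside 1294 at T110. Their summed ratio was 1.10 (1.08 to 1.13). All 96 NCU codes together are at 1 by the scale, which puts the other 92 below it, at 0.993 (0.986 to 1.00). Each of L025 to L028 stands on 4 or 5 units of the contigs read here. The RT minus reads of L025 to L028 (2776 to 3814) were above those of any code of the run. After L028, at 25.3 kb from the T065 code, the next code is L096 on the reverse strand, at 32.7 kb. Forward units resume with L065 at 33.9 kb. The next 2 NCU codes by excess, L066 with 643 reads and L065 with 486, lie on this later forward stretch. L063, with the highest ratio of the well-read NCU codes (682 and 2332 reads, 1.16, 1.07 to 1.27), also lies there. Of the 6 NCU codes on this stretch, 5 had positive excess, beside 44 of all 96 NCU codes, and L005, which occurs on 6 units, had -344. In the stretch after it, on the reverse strand, the 5 NCU codes other than L025 to L028 were at 0.999 (0.980 to 1.02) in sum, and 3 of them had positive excess. The 9 NCU codes at the start of the contig, before the CenU units, were at 0.986 (0.974 to 0.999) in sum. Raised NCU codes were not confined to this contig. L057, which stands on no unit of it, held 791 and 2638 reads, a ratio of 1.14 (1.05 to 1.23). L077 and L094, also on none of its units, were at 1.07 and 1.05, with intervals above 1. The lowest well-read NCU code was L060 with 736 and 1972 reads, at 0.912 (0.838 to 0.993).

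In all, the input codes had 20512 excess reads, of which the 10 codes of the run had 16607, or 81.0% (76.0 to 85.9). The other 54 input codes had 3905 excess reads, spread over 43 codes with positive and 11 with negative values. Their summed ratio was 1.04 (1.03 to 1.06). The interval was above 1 for 10 of them and below 1 for 0, while among NCU codes it was above 1 for 11 and below 1 for 14. The scale itself sets the summed NCU ratio to 1 and puts NCU codes on both sides. Of the RT plus reads, 45.2% were excess on the run and 4.17% on the other input codes.

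The other 5 input codes were not well-read. T068 held 22 and 92 reads, at a ratio of 1.40 (0.883 to 2.22). It comes next to T067 in the input DNA, and on the contig T104 stands in its place. T088 had 34 RT minus reads and a ratio of 1.08, T103 held 2 and 4, and T127 held 2 and 10. Thus T068 and T103, the input neighbours that the junction of T067 with T104 leaves out, both had few reads in RT minus and RT plus. In RT plus T068 was above the 34 reads of the median T002 to T064 code, and T103 was below them. T127 stands last before the vector, and no reverse primer site follows its code within 1000 bases. L096 (21 and 76 reads) likewise has no such product on the contig, and 182 of 185 units have a product of 132 bases.

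The fifth, T072, had 21 RT minus and 79 RT plus reads, although it lies inside D1, with a ratio of 1.26 (0.782 to 2.03). T001, which was not in the input DNA, held 700 and 2092 reads, or 138% of the input median without reverse transcription, at a ratio of 1.02. The sequence listed for each of these 2 codes is the one in the primer named for the other, and no other listed code differs from its primer in this way. They are shown as listed for the codes.
T001: ggggaaaaTAcccTCtttTCggg
T072: ggggaaaaAAcccAAtttAAggg
In the HAC 4-65 libraries, whose input DNA has both codes, T001 had 2714 RT minus reads and T072 had 77. Which of the codes was counted under which name cannot be told apart from the files, so the low T072 count may not be that of the unit in D1. Under either name the ratio was below 1.5-fold when no background was subtracted.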

How the data were processed

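Position code reads were counted in 1 RT minus and 1 RT plus library of HAC 1-20 cells. The authors amplified the codes by competitive PCR, sequenced them on a MiSeq, trimmed reads with cutadapt 4.0 (submitters' processing notes), matched them to the code references with Bowtie and counted them with SAMtools; no genome build applies. What the authors deposited are counts of reads on each code, not normalized. References named T were read as CenU and L as NCU, from their numbers. Unmatched reads (6.48% in RT minus, 6.19% in RT plus) were left out.

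Groups came from the sample labels. RT plus counts were scaled by summed NCU reads. Ratios of single codes used a pseudocount of 0.5 and a minimum of 10 reads in both libraries together, with 95% Poisson intervals on the log scale; higher or lower codes were those at 1.5-fold or more whose interval left out 1. With 1 library a side there was no test. Codes, primers and contigs were taken from the study's supplementary sequences, of which the contigs were used in part, and a run was CenU codes in a row on 1 strand at most 3000 bases apart.

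Named codes were those of the run with T104, the 5 highest and 3 lowest input codes, the extremes of D1, D2 and NCU, input codes with RT minus reads under 20% of the input median (left out of the extremes), T001 and T072, and the ends of CenU runs. The members, regions, lists and rules were chosen with earlier results of these data known. Alternatives covered the scale, background subtraction, the minimum, the pseudocount, the fold and the reference of T072. Scripts (Python 3.11.15, NumPy 2.4.6) were tested on simulated counts. RNA amounts by quantitative PCR, genomic DNA counts and CENP-A profiles were not analysed here.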

Additional observations from a re-analysis of the deposited data

Results flagged for a closer look

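Of 125 references outside the input CenU and NCU codes with at least 10 reads, 3 (2.40%) were at least 2-fold higher in RT plus than in RT minus on the NCU scale, with a counting interval above 1, although the input DNA of HAC 1-20 did not hold them. T003 had a ratio of 2.48 (24 and 178 reads), T004 of 2.19 (32 and 208 reads) and T009 of 2.85 (9 and 79 reads). The reads are few beside 1678.5 for the median input code in RT plus.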

How the results depend on the processing

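No paired analysis was possible because both groups were single libraries. Of 89 values of the main results under alternatives, 72 stayed within the counting interval of the reported value, or within 1.5 times it for counts. Scaling by all CenU and NCU reads gave 1.16 for the input CenU ratio, 1.03 for the median input code, 1.01 for D2, 91.2% for the share of excess in the run and 1.08 for L025 to L028, with 9 codes at 1.5-fold (T066 fell short). Scaling by the median NCU code gave 1.21, 1.07 and 75.6% for the first 2 ratios and the share. Scaling by the input CenU reads themselves sets their ratio to 1 and leaves no excess share. It turned the median input code (0.888), D1 (0.899), D2 (0.877) and L025 to L028 (0.930) below 1, and T112 (0.944) and L063 (0.981) with them, by construction, since the raised run is in the scale. S1 was then at 1.84 and the run at 1.54, with 6 codes at 1.5-fold, those of S1. Another minimum of reads, another pseudocount, T001 counted as T072, and scales without L096 or without L025 to L028 moved no main result beyond its interval. A fold of 2 left 4 codes, T104, T105, T107 and T109. Without the run the input CenU ratio was 1.04. Subtracting the median T002 to T064 code raised the number of codes at 1.5-fold from 10 to 12, with T068 and T072 added. T068 and T072 had 22 and 21 RT minus reads before 17 were subtracted, so their calls rest on very few reads. The alternatives without the run, without L025 to L028 in the scale, for single codes and for D2 were added after the data were seen. Depth limits a single code to the width of its interval, and RT minus is the shallower library.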

Other observations

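Among references numbered above the 96 NCU codes, L117 went from 399 RT minus reads to 1081 RT plus reads, a ratio of 0.922, while no other of these had over 27 and 52 reads.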
